A study of Rattus norvegicus with 16 samples.

Results

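The genes of cholesterol and fatty acid synthesis were followed in rat cornea as a list of 32 genes, covering the mevalonate and isoprenoid steps, the steps from squalene to cholesterol, the regulators of the SREBP pathway, the enzymes of fatty acid synthesis, elongation and desaturation, and 3 genes of sterol transport and efflux. Members were the probe sets of the array annotated to a single listed gene symbol. Of the 32 genes, 31 were measured among the 14217 genes with such a probe set, and Hmgcs1 was not analysed here. For 19 of the 31 genes more than 1 probe set was present, and values are from the brightest of them, by its mean over the 16 arrays, unless another is named.

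All rats were male Wistar rats aged 12 to 16 weeks. Naive corneas were not sutured and received no drops (n = 4). In the other groups 2 sutures were placed in the cornea at 1.5 mm from the limbus. This procedure brings inflammation and, at a later stage, new vessels into this normally avascular tissue. The corneas were taken before that stage, and the paper reports that no new vessel sprouts were seen at sampling. The eye received 4 drops a day for 2 days, after which the cornea was taken. The drops held goat IgG as sham treatment (IgG, n = 4), a rat-specific antibody against Vegf, the main growth factor of vessel endothelium (anti-Vegf, n = 4), or the glucocorticoid dexamethasone at 1 mg/ml (n = 4). The labels give both antibodies at 20 mg/ml, whereas the methods give the same figure in µg/ml, and the labels name the sham agent an anti-IgG antibody. Because every sutured cornea also received drops, suture and drops cannot be told apart in comparisons with naive corneas, and every sutured group shared the same 4 naive arrays as its control. The labels describe the sample as cornea without scleral rim and the methods as the area between sutures and temporal limbus. Each cornea was hybridized to 1 array, and values are log2 signals after robust multi-array averaging (RMA).

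Arrays are called by their specimen names, and values on single arrays follow the order Cont 1, Cont 2R, Cont 3 and Cont 4 for naive, F17, F19, F22 and F23 for IgG, F1x, F2, F6 and F7 for anti-Vegf, and F25, F26, F27 and F30 for dexamethasone. The array medians lay between 6.548 and 6.614. Corneal epithelium markers stood at a mean log2 signal of 13.20 to 13.49 on all arrays, and markers of sebaceous and meibomian glands, of which 2 of 6 were measured, at 3.86 to 4.19, close to 3.999, the signal at the 10th percentile of all probe sets. Leukocyte markers rose in each sutured group, with 8 of 9 called higher against naive. Their mean log2 signal was 6.57 to 6.69 on naive arrays and 8.21 to 9.15 on sutured ones. Of 5 measured vessel endothelium markers, none was called higher against naive in any sutured group. In IgG, anti-Vegf and dexamethasone corneas 1, 2 and 0 of them were called lower. Lens markers stood at 7.36 to 9.87 on the dexamethasone arrays and at 5.10 to 6.30 on all others, with the highest value on array F26. Corneal endothelium markers were called lower in 3, 5 and 2 of 5 cases and keratocyte markers in 2, 5 and 1 of 7 cases in IgG, anti-Vegf and dexamethasone corneas. Of all genes, 6.32%, 6.82% and 8.19% were called higher against naive in these groups, and 5.02%, 5.94% and 4.45% lower. Of 5 measured glucocorticoid response genes, 3 were called higher against naive under dexamethasone, and none was higher and 2 (Fkbp5 and Tsc22d3) were lower in each antibody group. The poly-A control transcripts, added to the RNA before labelling, gave a mean log2 signal of 6.75 to 7.44 on the IgG and anti-Vegf arrays and of 4.93 to 5.40 on the naive and dexamethasone arrays. The part of these differences in the results was not tested. In whole tissue, fewer cells of a type and less RNA per cell cannot be told apart.

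Cholesterol is built from acetyl-CoA through mevalonate, isoprenoid diphosphates and squalene, and its synthesis is set by SREBP transcription factors, which Scap carries out of the endoplasmic reticulum and the Insig proteins hold back when sterols are plentiful. The same factors drive fatty acid synthesis by Acly, Acaca and Fasn, and the elongases and desaturases then lengthen the chains and insert double bonds. The desaturases Fads1 and Fads2 and the elongase Elovl5 act on polyunsaturated chains, including arachidonic acid, the precursor of prostaglandins and leukotrienes, whereas Scd makes monounsaturated chains such as oleic acid. Surplus sterol leaves the cell through Abca1 and Abcg1, whose genes are switched on by LXR receptors.

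The promoters of the genes with the largest changes are shown first, as RefSeq gives them for the rat build GRCr8, from 250 bases before to 50 bases after the gene start, so that sequence and signal can be read together. Capitals mark each CCAAT box, the binding site of NF-Y, which works beside SREBP at sterol genes, and a box on the opposite strand reads ATTGG. Fads1 (chr1:216252442-216252741, plus strand) and Scd (chr1:253231682-253231981, minus strand) were the members with the largest rise, Elovl5 (chr8:87670914-87671213, plus strand) works in the same chain as Fads1, and Idi1 (chr17:66547475-66547774, minus strand) was the mevalonate gene that changed most.
Fads1: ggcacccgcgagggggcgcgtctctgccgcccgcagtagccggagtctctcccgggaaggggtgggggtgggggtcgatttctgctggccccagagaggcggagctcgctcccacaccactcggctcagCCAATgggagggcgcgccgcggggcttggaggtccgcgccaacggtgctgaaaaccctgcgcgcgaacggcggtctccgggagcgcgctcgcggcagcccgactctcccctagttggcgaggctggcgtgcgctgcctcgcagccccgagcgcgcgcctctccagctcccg
Scd: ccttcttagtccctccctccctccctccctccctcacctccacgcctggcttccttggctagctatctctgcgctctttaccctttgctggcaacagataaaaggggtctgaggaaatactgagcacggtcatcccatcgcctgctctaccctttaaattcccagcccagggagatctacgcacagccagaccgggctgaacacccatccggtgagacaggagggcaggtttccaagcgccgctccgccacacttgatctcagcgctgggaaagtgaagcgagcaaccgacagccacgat
Elovl5: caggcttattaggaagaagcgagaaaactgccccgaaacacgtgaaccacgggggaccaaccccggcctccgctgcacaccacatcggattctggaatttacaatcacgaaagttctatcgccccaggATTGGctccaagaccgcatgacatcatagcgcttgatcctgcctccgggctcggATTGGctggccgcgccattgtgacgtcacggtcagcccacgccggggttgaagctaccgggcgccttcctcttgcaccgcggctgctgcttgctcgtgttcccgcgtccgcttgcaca
Idi1: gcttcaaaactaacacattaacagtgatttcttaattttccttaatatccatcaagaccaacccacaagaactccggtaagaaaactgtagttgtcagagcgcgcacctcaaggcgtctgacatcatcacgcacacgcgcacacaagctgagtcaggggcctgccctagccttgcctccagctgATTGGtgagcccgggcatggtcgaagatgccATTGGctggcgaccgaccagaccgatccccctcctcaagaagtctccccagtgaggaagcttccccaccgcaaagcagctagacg

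A promoter sequence was found for 23 of the 31 measured members, and 17 of these (73.9%) held CCAAT on either strand, beside 39.6% of the 27457 genes in the table. Of the 7 members called in at least 1 comparison, 4 (57.1%) held it. The box stood 121 bases before the start in Fads1, 68 and 122 bases before it in Elovl5, and 35 and 66 bases before it in Idi1. No match was found in the windows of Scd, Fads2 and Abca1. Among the other members, Mvk and Nsdhl each held 5 boxes and Msmo1 and Hsd17b7 each held 3. The letters TCACNCCAC, searched on both strands as an SREBP motif, were in none of the 23 members and in 1.25% of all genes, which says only that these letters are not in this window.

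The clearest change in the list lay in the desaturases. Fads1 was higher in every sutured group than in naive cornea and higher again under dexamethasone, Scd was higher under dexamethasone than in naive and IgG corneas, and no member was called lower by its brightest probe set in any of the 6 comparisons. A gene was called against naive at an adjusted p under 0.05 (limma, Benjamini-Hochberg over all probe sets) with a fold of at least 1.5, and between treatments at the same adjusted p without a fold limit.

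In IgG corneas 1 of 31 members was called higher than naive and 0 lower, where 6.32% of all genes were called higher and 5.02% lower. In anti-Vegf corneas the counts were again 1 higher and 0 lower, beside 6.82% and 5.94% of all genes. In dexamethasone corneas 6 members were called higher and 0 lower, beside 8.19% and 4.45%. The median log2 change over the 31 members was 0.09, 0.06 and 0.19 in these comparisons, against -0.01, -0.01 and 0 over all genes. The called member was Fads1 in the first 2 comparisons, and Fads1, Scd, Elovl5, Idi1, Lss and Fads2 in the third.

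**Figure D1:**
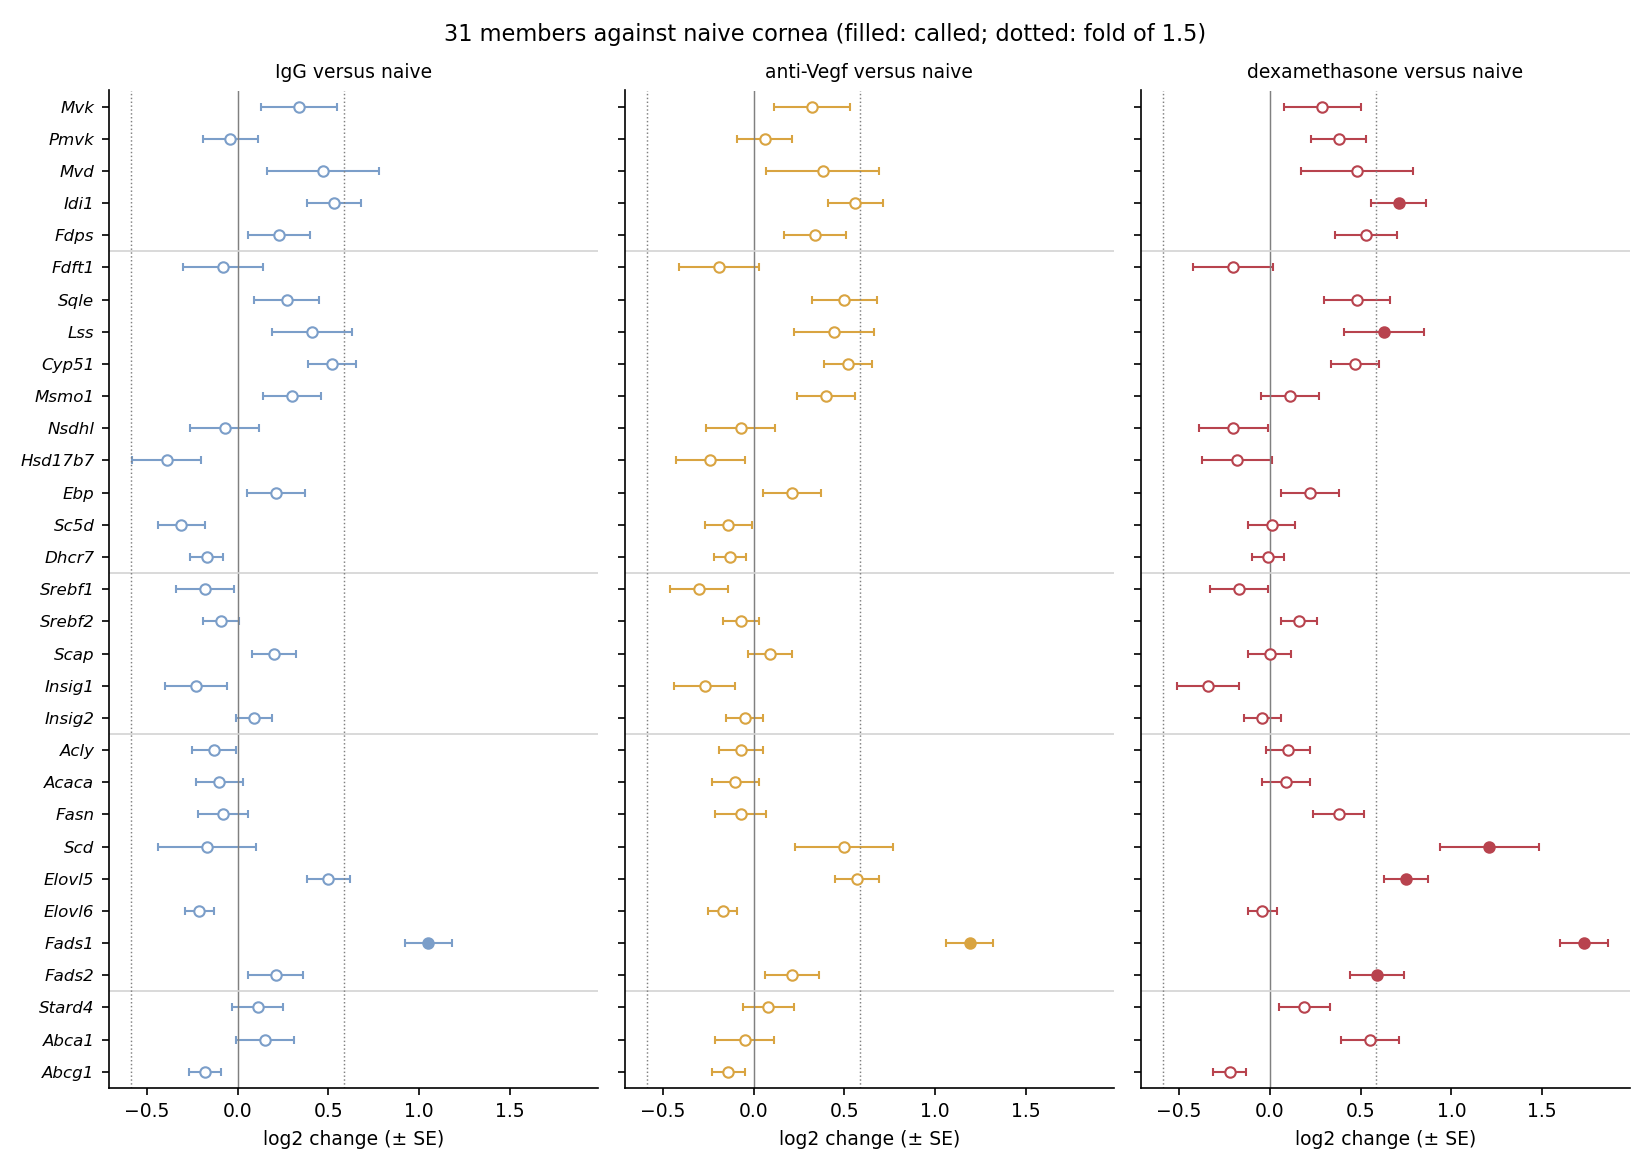
Log2 change (x axis, with SE from limma) of the 31 measured members (y axis, grouped by role) in IgG, anti-Vegf and dexamethasone corneas against the same 4 naive corneas. Filled points were called, and dotted lines mark a fold of 1.5. Fads1 lies apart at 1.05, 1.19 and 1.73, and most of the other members lie within the dotted lines.

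Fads1, the desaturase that completes arachidonic acid, read 8.92, 8.91, 8.91 and 8.95 on the 4 naive arrays. It read 9.68, 10.10, 10.16 and 9.94 in IgG corneas, 9.98, 10.14, 10.18 and 10.15 in anti-Vegf corneas and 10.23, 10.66, 10.90 and 10.83 in dexamethasone corneas. The naive values lay below every sutured value, and the dexamethasone values lay above every value of the other groups. The change against naive was 1.05 ± 0.13 (SE) in IgG (2.07-fold, adjusted p = 2.66e-05), 1.19 ± 0.13 in anti-Vegf (2.28-fold, adjusted p = 7.98e-06) and 1.73 ± 0.13 in dexamethasone corneas (3.33-fold, adjusted p = 1.96e-07). These 3 calls held in all 28 alternative analyses of each. Fads1 has a single probe set, so alternatives in the choice of probe set could not move its change. Nor could leaving out an array of a group not compared. Under dexamethasone Fads1 was highest on F27 and F30, the arrays of that group with the lowest lens signal, and Fads2 was highest on F30. The other called members, Scd, Elovl5, Idi1, Lss and Abca1, were highest on F26, where the lens signal was highest. The part of lens tissue in these values was not tested.

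Fads2, the desaturase that takes the first step from the essential fatty acids and lies with Fads1 on chromosome 1, read 7.86, 7.69, 8.26 and 8.18 in naive corneas. Under dexamethasone it read 8.54, 8.43, 8.46 and 8.91, above every naive value, while the IgG (7.97 to 8.33) and anti-Vegf values (7.84 to 8.38) overlapped with naive. The change was 0.59 ± 0.15 under dexamethasone (adjusted p = 0.00925), at the fold limit, and 0.21 in each antibody group (adjusted p = 0.336 in IgG and 0.353 in anti-Vegf). Without dexamethasone array F30, naive array Cont 1 or naive array Cont 2R it was 0.48, 0.54 and 0.49, and with array weights or reference centring 0.56 and 0.43, each below the fold limit.

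Scd, the desaturase for oleic acid, read 8.99, 9.10, 9.14 and 9.31 in naive and 9.51, 9.28, 9.19 and 7.86 in IgG corneas. It read 9.38, 9.47, 9.87 and 9.80 in anti-Vegf corneas and 10.18, 10.76, 9.97 and 10.47 in dexamethasone corneas. All dexamethasone values lay above all others, and IgG array F23 lay far below the rest of its group. The change against naive was 1.21 ± 0.27 under dexamethasone (2.31-fold, adjusted p = 0.00386), 0.50 ± 0.27 in anti-Vegf (adjusted p = 0.20) and -0.17 ± 0.27 in IgG corneas (adjusted p = 0.686).

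Elovl5, the elongase of polyunsaturated chains, read 10.93, 10.93, 10.71 and 10.64 in naive corneas. It read 11.38, 11.40, 11.16 and 11.27 in IgG, 11.11, 11.26, 11.42 and 11.67 in anti-Vegf and 11.38, 11.86, 11.44 and 11.54 in dexamethasone corneas, so that every sutured value lay above every naive one. The change was 0.75 ± 0.12 under dexamethasone (1.69-fold, adjusted p = 4.04e-04), and 0.50 and 0.57 in IgG and anti-Vegf corneas, which passed the adjusted p (0.00725 and 0.00309) and not the fold limit. The other Elovl5 probe set differed: it was called higher in IgG corneas (0.61 ± 0.12, adjusted p = 0.00106) and not under dexamethasone (0.17 ± 0.12, adjusted p = 0.336). With the probe sets averaged, the dexamethasone change was 0.46 and below the fold limit.

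The other fatty acid genes moved little against naive. Fasn, the fatty acid synthase, changed by 0.38 ± 0.14 under dexamethasone (adjusted p = 0.0689), by -0.08 in IgG and by -0.07 in anti-Vegf corneas. Acly, which supplies cytosolic acetyl-CoA, and Acaca, which makes malonyl-CoA, lay between -0.13 and 0.10 in the 3 comparisons. Elovl6, the elongase of saturated chains, changed by -0.21, -0.17 and -0.04, with adjusted p from 0.0656 to 0.788. Other probe sets differed. In IgG, anti-Vegf and dexamethasone corneas the other Fasn probe set had means of 8.78, 8.75 and 9.14, against 9.05 in naive corneas. The other Elovl6 probe set had means of 9.66, 9.64 and 9.64 against 9.94, and the other Acaca probe set 6.56, 6.52 and 6.39 against 6.34.

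**Figure D2:**
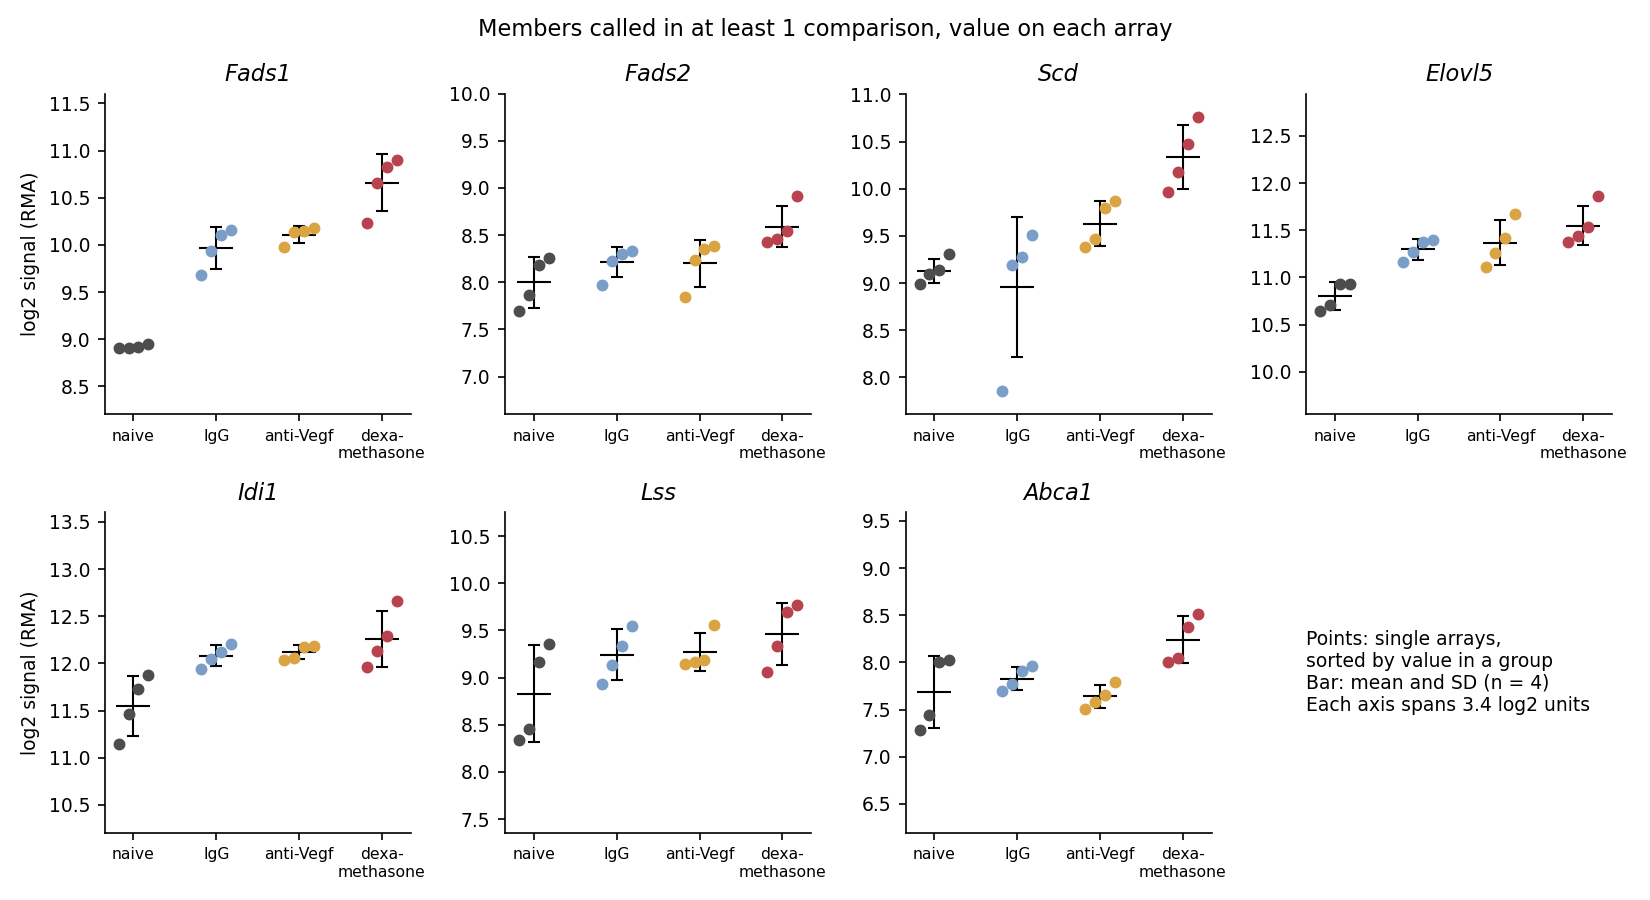
Log2 signal (y axis) of the 7 members called in at least 1 comparison on each of the 16 arrays, in 4 groups of 4 (x axis), with the mean and SD of each group. In Fads1 and Scd the dexamethasone points lie above all other points, and in Lss and Abca1 the naive points fall into a low and a high pair.

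Among the mevalonate and isoprenoid genes, Idi1, the isomerase that makes dimethylallyl diphosphate, was called under dexamethasone. It read 11.46, 11.15, 11.73 and 11.88 in naive corneas and 12.13, 12.66, 11.96 and 12.29 under dexamethasone. The IgG values (12.12, 12.21, 12.05 and 11.94) and anti-Vegf values (12.04, 12.18, 12.06 and 12.17) also lay above every naive one. The change was 0.71 ± 0.15 under dexamethasone (adjusted p = 0.00266), 0.53 in IgG (adjusted p = 0.0157) and 0.56 in anti-Vegf corneas (adjusted p = 0.011), the last pair below the fold limit. A further Idi1 probe set gave 0.67, 0.58 and 0.57. Without array F26 or naive array Cont 2R the dexamethasone change was 0.57 in each case, just under the fold limit.

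The other 4 mevalonate genes were not called against naive. Fdps, the farnesyl diphosphate synthase, changed by 0.53 ± 0.17 under dexamethasone (adjusted p = 0.0371), below the fold limit. Mvk and Mvd, the mevalonate kinase and decarboxylase, changed by 0.29 to 0.48 in the 3 comparisons with an SE of 0.21 and 0.31, and Pmvk, the phosphomevalonate kinase, by -0.04 to 0.38.

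From squalene to cholesterol, Lss, which closes the ring to form lanosterol, was called under dexamethasone. It read 8.45, 8.34, 9.16 and 9.36 in naive corneas and 9.33, 9.77, 9.06 and 9.69 under dexamethasone, so that the groups overlapped. The IgG values were 9.55, 9.33, 9.13 and 8.93 and the anti-Vegf values 9.17, 9.14, 9.19 and 9.56. The change was 0.63 ± 0.22 under dexamethasone (adjusted p = 0.0477), 0.41 in IgG and 0.44 in anti-Vegf corneas. The dexamethasone call was lost when any of 10 of the 16 arrays was left out, with 0.47 to 0.68 and adjusted p from 0.0557 to 0.154, and it held without F7, F17, F23, F27, Cont 3 or Cont 4. The other Lss probe set was called higher in all 3 groups, by 0.66, 0.64 and 0.65.

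Cyp51, the lanosterol demethylase, was higher than naive by 0.52, 0.52 and 0.47 (adjusted p = 0.00725, 0.00657 and 0.0147), and in each group all 4 values lay above all naive values, yet no change reached the fold limit. The other Cyp51 probe set had means of 9.92, 10.07 and 10.21 against 9.75 in naive corneas, and its IgG and dexamethasone values overlapped with naive. Sqle, the squalene epoxidase, changed by 0.27, 0.50 and 0.48 (adjusted p = 0.281, 0.0499 and 0.0664), and Msmo1, the sterol demethylating oxidase, by 0.30, 0.40 and 0.11. The other enzymes of this stretch were not called. Hsd17b7, a sterol ketoreductase, gave -0.39, -0.24 and -0.18, Sc5d, the sterol desaturase, gave -0.31, -0.14 and 0.01, and the squalene synthase Fdft1, the dehydrogenase Nsdhl and the last reductase Dhcr7 gave -0.20 to -0.01. Ebp, the sterol isomerase, gave 0.21 to 0.22. None of these passed the adjusted p with its brightest probe set. The other Hsd17b7 probe set went the other way, with means of 8.54, 8.67 and 8.67 against 8.45 in naive corneas. The other Sc5d probe sets gave -0.44 (adjusted p = 0.0197) and -0.49 (adjusted p = 0.0147) in IgG corneas, and 1 of them -0.38 (adjusted p = 0.0443) in anti-Vegf corneas, all below the fold limit.

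Across the 15 sterol enzymes, 2 were called higher under dexamethasone and 0 in IgG or anti-Vegf corneas, beside 8.19%, 6.32% and 6.82% of all genes. Their median log2 changes were 0.29, 0.23 and 0.32. When arrays were centred on 7 reference genes these medians were 0.14, 0.11 and 0.15, and the median over all genes moved to -0.15, -0.12 and -0.17.

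The sterol enzymes shared their lowest array in the IgG and dexamethasone groups. All 15 were lowest on IgG array F23 within its group, where 24.6% of all genes were, and all 15 were lowest on dexamethasone array F27, where 29.5% of all genes were. On naive array Cont 4, 13 of the 15 were highest, as were 30.4% of all genes. Cont 1 and Cont 2R together held the lowest value of all 15, and 25.8% and 31.5% of all genes were lowest on these arrays. The mean over the 15 genes was 10.03 and 10.01 on Cont 1 and Cont 2R against 10.45 and 10.58 on Cont 3 and Cont 4, 10.11 on F27 against 10.50 to 10.81 on the other dexamethasone arrays, and 10.11 on F23 against 10.43 to 10.65 on the other IgG arrays. The anti-Vegf means were 10.31 to 10.63, and the lowest anti-Vegf values were spread over F6 (10 genes), F2 (3 genes) and F1x (2 genes). Of all genes, 25.7%, 33.2% and 26% were lowest on these arrays.

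The pair of low naive arrays was shared by part of the pathway. Ebp, Fdft1, Fdps, Hsd17b7, Lss, Mvd, Mvk and Nsdhl, 8 of the 15, were lower on both Cont 1 and Cont 2R than on both Cont 3 and Cont 4, with means more than 0.5 apart, as were 5.17% of all genes. Mvd, for example, read 8.22 and 8.33 on the former and 9.07 and 9.28 on the latter, whereas Cyp51 read 11.32, 11.41, 11.39 and 11.45 and Fads1 hardly moved. The beta-actin signal at the 5′ end minus that at the 3′ end, a measure of how far the labelled RNA reached, was -1.69 and -1.75 on Cont 1 and Cont 2R and -0.87 and -0.82 on Cont 3 and Cont 4. Among the dexamethasone arrays it was -1.38 on F26, where 11 of the 15 enzymes and 19.9% of all genes were highest. On F27, where all 15 were lowest, it was -1.35. With this measure as a covariate, a choice made after the values were seen, Fads1, Scd, Elovl5, Idi1 and Abca1 were called higher under dexamethasone than in naive corneas, beside 8.12% of all genes, and Lss (0.55) and Fads2 (0.52) were below the fold limit.

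Comparisons with naive were repeated without either pair, a choice made after these genes' own values were seen, so the counts of sterol enzymes are a description. Without Cont 1 and Cont 2R, Fads1, Scd, Elovl5 and Abca1 were called higher under dexamethasone and Nsdhl lower, beside 7.86% and 5.25% of all genes. The Lss change was 0.20 (adjusted p = 0.558), and Hsd17b7, by its brightest probe set only, was called lower in IgG corneas, beside 4.97% of all genes. Without Cont 3 and Cont 4, 9 members were called higher under dexamethasone, with Mvk, Pmvk and Fdps added, and 5 in each of the IgG and anti-Vegf groups, beside 9.05%, 7.84% and 7.81% of all genes. Fads1 was called in both settings in all 3 groups, and Scd and Elovl5 in both under dexamethasone.

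**Figure D3:**
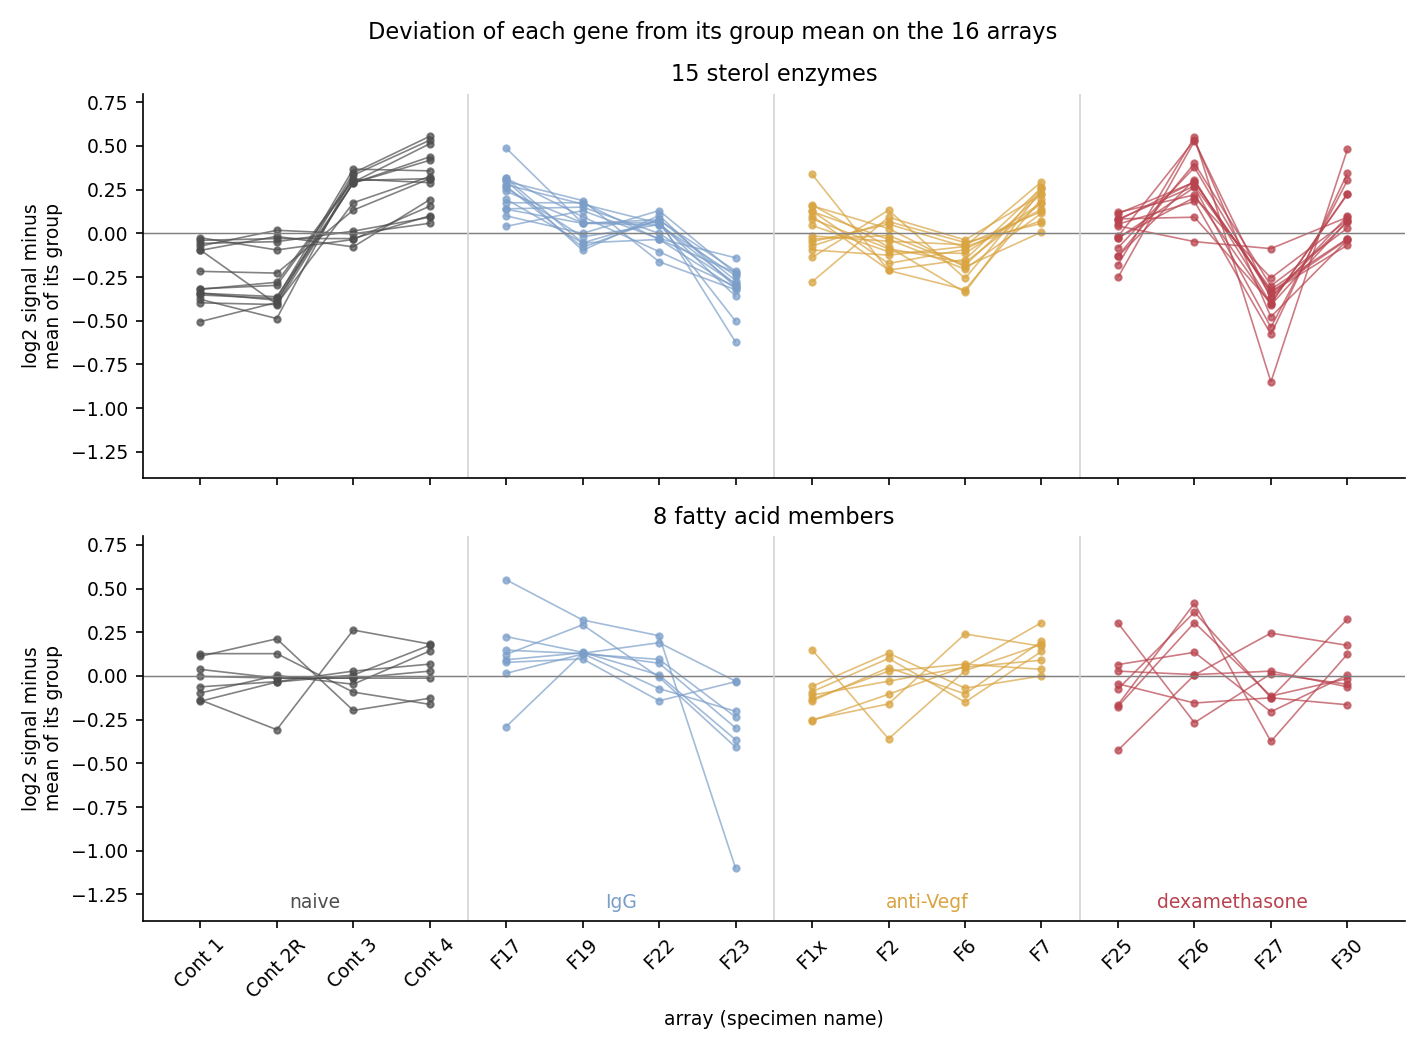
Log2 signal minus the mean of its group (y axis) for each gene on each of the 16 arrays (x axis, by group), for the 15 sterol enzymes (top) and the 8 fatty acid members (bottom). Each line is 1 gene within 1 group. All 15 sterol enzymes are lowest on F23 and F27 within their groups, as are 24.6% and 29.5% of all genes. Of the 15, 12 are lower on both Cont 1 and Cont 2R than on both other naive arrays, as are 36.6% of all genes. The fatty acid members cross each other in the naive, anti-Vegf and dexamethasone groups, 6 of 8 are lowest on F23, and the lowest point is Scd on F23.

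The regulators of the pathway showed no called change in any comparison. Srebf1 and Srebf2, which encode the SREBP factors, changed against naive by -0.30 to 0.16, and Scap and Insig2 by -0.05 to 0.20. Insig1, which is itself a target of SREBP, changed by -0.23, -0.27 and -0.34 (adjusted p = 0.356, 0.279 and 0.179), with values of 12.07 to 12.44 in naive and 11.52 to 12.41 in dexamethasone corneas. A dimmer Scap probe set gave 0.51 ± 0.09 in IgG and -0.04 ± 0.09 in dexamethasone corneas, and it was called lower under dexamethasone than under IgG (-0.54, adjusted p = 0.00183) and anti-Vegf (-0.38, adjusted p = 0.0211).

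The 3 transport genes were not called against naive. Abca1, the cholesterol exporter, changed by 0.55 ± 0.16 under dexamethasone (adjusted p = 0.0186), below the fold limit. Abcg1, the partner exporter, changed by -0.18, -0.14 and -0.22, and Stard4, a sterol carrier of the cytosol, by 0.11, 0.08 and 0.19. Other probe sets of these genes disagreed: a Stard4 probe set was called higher in IgG (0.65) and dexamethasone corneas (0.59), and an Abca1 probe set was called lower in anti-Vegf corneas (-0.74, adjusted p = 0.0469). Under dexamethasone the dimmer Abca1 probe sets had means of 7.31, 5.17 and 5.90, against 7.35, 5.35 and 5.41 in naive corneas.

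Dexamethasone was next compared with the other treatments of sutured corneas, where all groups had sutures and drops. The dexamethasone arrays stood apart from both antibody groups in poly-A control signal (5.03 to 5.40 against 6.75 to 7.44). They also stood apart in Gapdh signal at the 5′ end minus the 3′ end (-0.48 to -0.32 against -0.16 to -0.04). The part of these differences was not tested, and they cannot be told apart from treatment here. Against IgG, 2 of 31 members were called higher and 0 lower, beside 7.41% and 3.16% of all genes, and against anti-Vegf again 2 higher and 0 lower, beside 4.63% and 2.5%. The comparisons share the dexamethasone arrays. Scd was higher under dexamethasone than under IgG by 1.38 ± 0.27 (2.61-fold, adjusted p = 0.00485), and without IgG array F23 by 1.02 (adjusted p = 0.00302). Against anti-Vegf the difference was 0.71 ± 0.27 (adjusted p = 0.13), although no value overlapped.

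Fads1 was higher under dexamethasone than under IgG by 0.69 ± 0.13 (1.61-fold, adjusted p = 0.00365) and than under anti-Vegf by 0.55 ± 0.13 (1.46-fold, adjusted p = 0.0187). The former held in all 26 alternative analyses, and the latter in 23. It was lost without anti-Vegf array F1x (0.50, adjusted p = 0.0507), without dexamethasone array F27 (0.46, adjusted p = 0.0588) and in a fit of only those 2 groups (adjusted p = 0.0603), and it would not pass a fold limit of 1.5, which is not among the 26.

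Abca1 read 8.01, 8.51, 8.38 and 8.05 under dexamethasone and 7.58, 7.66, 7.79 and 7.51 under anti-Vegf, with 8.03, 8.00, 7.44 and 7.28 in naive and 7.77, 7.91, 7.70 and 7.96 in IgG corneas. The dexamethasone values lay above all anti-Vegf and IgG values, and the highest naive value lay above the lowest dexamethasone value. The difference was 0.60 ± 0.16 against anti-Vegf (1.52-fold, adjusted p = 0.0324) and 0.41 ± 0.16 against IgG (adjusted p = 0.121). The call held in 18 of 26 alternative analyses. It was lost without F1x, F2, F7, F26 or F27, with differences of 0.51 to 0.61 and adjusted p from 0.0614 to 0.0979, and with the ordinary test (adjusted p = 0.0648), cyclic loess (adjusted p = 0.0529) and the mean of probe sets (adjusted p = 0.0794). A dimmer Abca1 probe set was also called, at 0.90 ± 0.21.

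All 8 fatty acid members lay above 0 in both comparisons, from 0.17 to 1.38 against IgG and from 0.13 to 0.71 against anti-Vegf, where 7744 and 7926 of all 14217 genes did, and they stayed above 0 when arrays were centred on reference genes or normalized by cyclic loess. This holds for the brightest probe sets: the other Acaca probe set gave -0.17 and -0.13, the other Elovl6 probe set -0.03 and 0, and the other Elovl5 probe set -0.44 and -0.33. Fasn was 0.45 ± 0.14 higher against each (adjusted p = 0.0543 and 0.0688), and Fads2 0.38 ± 0.15 higher against each (adjusted p = 0.126 and 0.142). The median over the 31 members was 0.18 and 0.13, against 0.02 over all genes in each. Among the 15 sterol enzymes the median was 0.16 and 0.06 and none was called, and Pmvk had the largest difference at 0.43 (adjusted p = 0.0822) and 0.33 (adjusted p = 0.212). The other Elovl5 probe set was called lower against IgG (-0.44, adjusted p = 0.0255), and a dimmer Abcg1 probe set was called lower against IgG (-0.44) and anti-Vegf (-0.36), where the brightest gave -0.05 and -0.09.

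**Figure D4:**
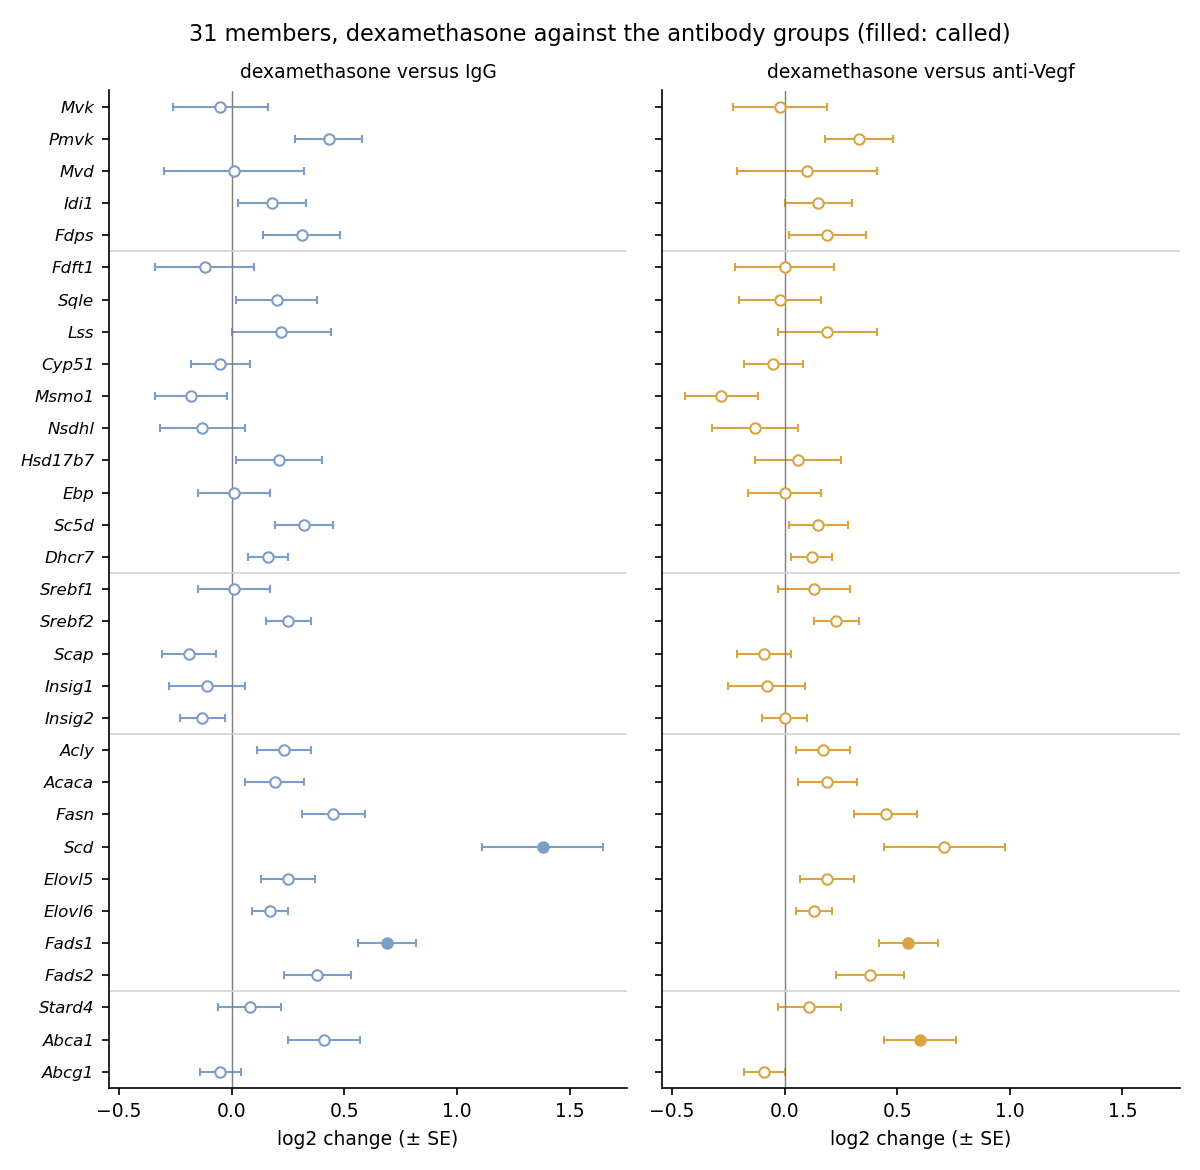
Log2 change (x axis, with SE from limma) of the 31 measured members (y axis, grouped by role) in dexamethasone corneas against IgG and against anti-Vegf corneas. Filled points were called: Scd and Fads1 on the left, Fads1 and Abca1 on the right. All 8 fatty acid members, by their brightest probe sets, lie right of 0 in both panels.

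Between anti-Vegf and IgG no member was called, beside 0% of all genes higher and 0% lower. At an unadjusted p under 0.05, limma counted 1 member, Scd (0.67 ± 0.27, adjusted p = 0.749), and 942 genes in all. The ordinary test, moderation with trend and robust settings, and array weights also called 0 members. Without a fold limit against naive, 4 members passed in IgG corneas (Cyp51, Elovl5, Fads1 and Idi1), 5 in anti-Vegf corneas (those and Sqle) and 9 in dexamethasone corneas, all higher, beside 13.4%, 14.7% and 16.1% of all genes called higher by that rule.

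Other genes around the pathway were counted from 6 further lists. Against naive, 6.32%, 6.82% and 8.19% of all genes were called higher in IgG, anti-Vegf and dexamethasone corneas, and 5.02%, 5.94% and 4.45% lower. Under dexamethasone 7.41% were higher and 3.16% lower than under IgG, and 4.63% and 2.5% than under anti-Vegf. The counts of each list are to be read beside these shares, and no list was tested against them. Of 9 other sterol and isoprenoid enzymes, 1 was called higher in IgG corneas (Nus1, a subunit of the enzyme that makes dolichol, 0.59), 0 in anti-Vegf and 1 under dexamethasone (Acat2, which starts the mevalonate chain, 0.73 ± 0.23, adjusted p = 0.0335). None was lower against naive. Nus1 was lower under dexamethasone than under IgG (-0.56) and anti-Vegf (-0.49), and Fntb, a farnesyltransferase subunit, was higher under dexamethasone than under anti-Vegf (0.65).

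Of 12 other genes of SREBP, LXR and sterol sensing, 0 were higher and 1 lower in IgG and in anti-Vegf corneas, and 1 was higher and 1 lower under dexamethasone. The lower gene was Mylip, the LXR-induced ligase that degrades lipoprotein receptors, at -0.75, -0.84 and -0.86 (adjusted p from 1.92e-04 to 5.71e-04). The higher gene was Nr1h3, which encodes an LXR receptor, at 0.83 ± 0.16 under dexamethasone (adjusted p = 0.00129) from a low level of 4.75 in naive corneas. Mbtps1, the protease that makes the first cut in SREBP, was higher under dexamethasone than under IgG (0.23 ± 0.07, adjusted p = 0.0404) and anti-Vegf (0.24 ± 0.07, adjusted p = 0.0466), and Lpin1, a phosphatidate phosphatase, than under anti-Vegf (0.34). In each comparison 2 of the 12 were called higher and 0 lower.

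Of 19 genes of lipoprotein uptake, esterification and efflux, 4 were higher and 3 lower in IgG corneas, 4 and 5 in anti-Vegf corneas, and 5 and 5 in dexamethasone corneas. Cd36, a scavenger receptor that takes up fatty acids and oxidized lipoprotein, rose by 0.88 in anti-Vegf and 1.74 in dexamethasone corneas and was higher under dexamethasone than under IgG (1.17 ± 0.17, adjusted p = 6.76e-04) and anti-Vegf (0.86 ± 0.17, adjusted p = 0.00731). Scarb1, the receptor for high-density lipoprotein, rose by 1.08, 1.29 and 1.47, and Ch25h, the cholesterol hydroxylase, by 1.32, 1.13 and 1.38. Lrp8, a lipoprotein receptor, fell in each group, at -1.03, -0.94 and -0.61. Under dexamethasone 3 were higher and 1 lower than under IgG, and 4 and 1 than under anti-Vegf.

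Of 20 other genes of fatty acid synthesis, 2 were higher and 1 lower in IgG corneas, 2 and 0 in anti-Vegf corneas, and 3 and 0 in dexamethasone corneas. Acsl4, which activates arachidonic acid to its CoA ester, rose by 0.80, 1.00 and 1.16 (adjusted p from 3.1e-05 to 7.07e-04). Acss2, which makes acetyl-CoA from acetate, rose by 0.84 under dexamethasone, and Elovl2, the elongase of the longest polyunsaturated chains, by 0.63 from a signal of 3.26, near the bottom of the range. Hacd1, a dehydratase of chain elongation, rose by 0.66 in IgG corneas with an adjusted p just under the threshold. Against IgG 3 of the 20 were higher under dexamethasone and against anti-Vegf 2, with 0 lower in either.

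Of 18 genes of fatty acid oxidation, none was called higher against naive. In IgG, anti-Vegf and dexamethasone corneas 2, 5 and 4 were called lower, beside 5.02%, 5.94% and 4.45% of all genes. Cpt1a, which admits fatty acids to the mitochondrion, changed by -0.51, -1.08 and -0.68, called in the last 2. Ech1 and Eci2, which rearrange double bonds for oxidation, changed by -0.52 to -0.88 and by -0.69 to -0.80, and Acaa2, the thiolase, by -0.56 to -0.79. Under dexamethasone 1 of the 18 was lower than under IgG and 0 than under anti-Vegf.

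Of 15 genes of triglycerides and lipid droplets, the same 5 rose in each sutured group, and 2, 2 and 1 were lower in IgG, anti-Vegf and dexamethasone corneas. Fabp5, the fatty acid binding protein of epithelia, rose by 2.01, 2.37 and 2.24, Angptl4, the lipase inhibitor, by 1.60, 1.41 and 1.61, and Agpat2, an acyltransferase, by 1.21, 1.41 and 1.50. Pparg, the nuclear receptor of adipocytes and macrophages, fell by 1.26, 1.49 and 1.54 on the log2 scale. None of the 15 was called between dexamethasone and either antibody group. Of 6 adipocyte markers 1 was called higher against naive in each sutured group, and their mean log2 signal was 4.99 to 5.23 in naive and 5.15 to 5.30 in sutured corneas.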

How the data were processed

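RNA from 16 rat corneas, 4 per group, had been hybridized to Affymetrix rat expression arrays with probes near the 3′ end, and the deposited values are log2 signals that the authors computed by RMA in Expression Console. RMA quantile-normalizes the arrays, so a shift shared by most genes is not seen. Of 31099 probe sets, 57 controls were left out of the tests, and 20826 of the remaining 31042 had a single gene symbol. A linear model over the 4 groups (limma 3.58.1 in R 4.3.3, 12 residual degrees of freedom) was fitted to all probe sets, and p-values were adjusted by Benjamini-Hochberg over all of them. The number of arrays limits the precision. Alternatives covered the test, array weights, normalization, a filter on dim probe sets, the choice of probe set, the adjustment, the fold limit and each array left out. The fit was tested on simulated data with independent noise for each probe set and array. Shifts that many genes share on an array were not part of it. Per-array values are given for members called in at least 1 comparison, and up to 4 called genes of each further list, those with the largest change in any comparison. The members and lists were chosen with earlier results of these data known. Promoters are from RefSeq.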

Additional observations from a re-analysis of the deposited data

Results flagged for a closer look

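Among 124 sets of 4 arrays, 1 for each member and group, 6 held an array far from the other 3, and chance gives about 1 in 20. Sqle was 10.58 on naive array Cont 4, with the next value at 10.45. Lss was 9.56 and Srebf2 10.31 on anti-Vegf array F7, with the next values at 9.19 and 10.07. Acaca was 8.86 on IgG array F23, with the next value at 9.23. Fasn was 11.40 on dexamethasone array F26, with the next value at 10.96. Elovl6 was 10.76 on naive array Cont 1, with the other 3 arrays within rounding of 10.71.

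Outside the gene measurements, the poly-A control probe sets had a mean log2 signal of 7.08 in IgG and 6.88 in anti-Vegf corneas, above the 5.10 of naive corneas.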

How the results depend on the processing

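Of 328 alternative values for the 12 called changes, 288 kept their direction and call, 40 lost the call and 0 reversed. Some of these alternatives could not move a change, such as leaving out an array of a group not compared. The number of members called in IgG against naive (1) became 4 by any probe set or with no fold limit, 3 without Cont 1 and Cont 2R, 5 without Cont 3 and Cont 4 and 2 with the beta-actin 5′ minus 3′ signal as a covariate. In anti-Vegf against naive (1) it became 2 with array weights, 3 by any probe set, 5 with no fold limit, 2 without Cont 1 and Cont 2R, 5 without Cont 3 and Cont 4 and 2 with the covariate. In dexamethasone against naive (6) it became 3 when centred on 7 reference genes, where Idi1, Lss and Fads2 were lost, and lay between 4 and 9 in all other settings, with 9 with no fold limit, without Cont 3 and Cont 4 or without F27, 5 without Cont 1 and Cont 2R, and 4 with array weights or without F26 or Cont 2R. In dexamethasone against IgG (2) it became 4 with array weights and 5 by any probe set, of which 3 were lower. It became 5 with the covariate and 8 at an unadjusted p, beside 3606 of all 14217 genes at that p. In dexamethasone against anti-Vegf (2) it became 1 with the ordinary test, a fit of 2 groups, cyclic loess, the mean of probe sets or a fold limit of 1.5. It became 4 by any probe set or with the covariate and 7 at an unadjusted p, beside 3234 of all 14217 genes at that p. In anti-Vegf against IgG (0) it became 1 at an unadjusted p, beside 942 of all 14217 genes. The share of all genes was not counted for the settings where none is given here or above. The cause was not tested. The naive pairs and the covariate were chosen after seeing the data.

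With each array left out in turn, the counts ranged from 1 to 2, 1 to 4, 4 to 9, 2 to 3, 0 to 4 and 0 to 0 in the same order. IgG against naive gave 2 without F23, Cont 3 or Cont 4. Anti-Vegf against naive gave 4 without F1x, 3 without Cont 4 and 2 without F2, Cont 1, Cont 2R or Cont 3. Dexamethasone against anti-Vegf gave 0 without F1x or F27, 1 without F2, F7 or F26 and 4 without F23. Reference centring turned the member median against naive to -0.02 in IgG and -0.11 in anti-Vegf corneas. No paired analysis was run, because the labels give no pairing of arrays between groups. The methods describe random assignment of sutured animals to treatments.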
